A study of Ovis aries with 115 samples.

Results

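The 8 Norwegian White Sheep (NWS) ewes and the 10 Suffolk ewes sampled in the luteal phase of a synchronised cycle were compared by RNA sequencing of the cervix. They were chosen by their labels alone (breed, an induced cycle, luteal phase) and made up 18 of the 115 libraries of the series. One more Suffolk library carried a title and labels that named different cycle types and phases, and it was placed in no group. The series was made from ewes of several breeds to set gene expression in the cervix beside breed differences in pregnancy rate after cervical insemination with frozen semen. The labels give an induced cycle for every ewe of both groups. In the study's paper, synchronised ewes of the follicular phase were multiparous and had been given a progestagen sponge and eCG, a gonadotrophin. They were sampled at mid-cervix after slaughter. The paper does not state the treatment or parity of the luteal ewes. Each library was taken as 1 ewe. NWS ewes were sampled in Norway only and Suffolk ewes in Ireland only, so breed, country and anything else that differed between the countries cannot be told apart. The day of the luteal phase on which the cervix was taken was not given in the sources used here.

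The cervix of the ewe is a long canal with interlocking folds, built of a mucus-secreting epithelium, a collagen-rich connective tissue and smooth muscle. Progesterone from the corpus luteum dominates in the luteal phase, when the canal is closed and mucus is thick and scant, whereas oestradiol of the follicular phase thins and increases the mucus. The luteal phase therefore gives the same tissue under the opposite hormone. In whole tissue, fewer cells of a type and less RNA per cell cannot be told apart.

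Total counts ran from 13758675 to 19143889 in NWS and from 12238996 to 21071028 in Suffolk, and the difference between the means of 17049330 and 16858307 did not pass the test (two-sided exact permutation test over 43758 divisions of the ewes, p = 0.875). Levels below are CPM, the count of a gene divided by the TMM-scaled total count of its library and brought to one common size, and 3 counts corresponded on average to 0.175 CPM in Suffolk. The first principal component held 23.2% of the variance and did not separate the breeds. The second held 16.9% and did, with scores from -41.9 to -7.36 in NWS and from 9.53 to 49.4 in Suffolk.

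Not every ewe looked equally luteal. A phase score was computed for each ewe as the correlation across genes between its deviation from the mean of the 39 synchronised NWS and Suffolk ewes and the follicular minus luteal difference of the other breed, so that luteal ewes should lie below 0. Of the luteal ewes, 13 scored between -0.68 and -0.416. The other 5 were NWS ewes 1 and 6 with -0.177 and -0.24, and Suffolk ewes 4, 5 and 7 with -0.171, -0.154 and 0.0582. AQP9, a water and glycerol channel, was at 0.602 and 0.338 CPM in NWS ewes 1 and 6, against 21.8 to 120 CPM in the other NWS ewes. GREB1, an oestrogen-induced gene, was at 148 and 119 CPM in those 2 ewes, beside a luteal NWS median of 34.8 CPM and a follicular NWS median of 321 CPM. Suffolk ewe 7 had 261 CPM of GREB1, 2.93 CPM of AQP9 and 231 CPM of OXTR, the oxytocin receptor. By contrast, GREB1 was at 37.5 and 26.2 CPM in Suffolk ewes 4 and 5, below the luteal Suffolk median of 55.6 CPM. Their OXTR was at 0.117 and 0.376 CPM, and their AQP9 at 7.3 and 3.68 CPM, beside a luteal Suffolk AQP9 median of 18.9 CPM. Suffolk ewe 2, which scored -0.458, had 189 CPM of GREB1. Of the follicular ewes, used only for comparison, 4 scored below 0 (NWS ewe 7 with -0.254 and Suffolk ewes 1, 10 and 11 with -0.136, -0.136 and -0.114). The counts below are given with all 18 ewes and again without these 5, which leaves 6 NWS and 7 Suffolk ewes, a choice made after seeing the data.

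**Figure D1:**
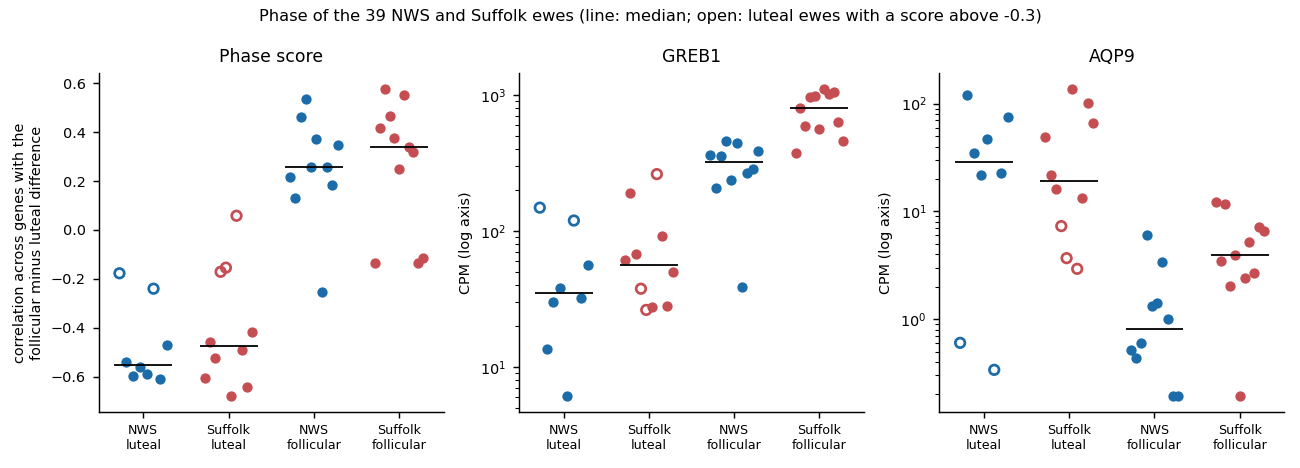
Phase score (left) and levels of GREB1 and AQP9 in CPM (log axes) in each of the 39 synchronised NWS and Suffolk ewes. Each point is 1 ewe and open points are the 5 luteal ewes with a score above -0.3, whose AQP9 lay between 0.338 and 7.3 CPM.

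Expression in the luteal cervix differed between NWS and Suffolk for 612 genes, 4.17% of the 14674 tested, with more genes higher in NWS than lower. A differentially expressed gene (DEG) had an adjusted p under 0.05 (edgeR quasi-likelihood test, Benjamini-Hochberg) and a fold change above 1.5. The DEGs were 378 genes higher in NWS (2.58%) and 234 lower (1.59%). Among them, 47 genes were higher and 25 lower by more than 4-fold. By adjusted p alone 1272 genes (8.67%) were called, 725 higher (4.94%) and 547 lower (3.73%). The median log2 fold change of all genes was -0.02, and the median standard error of a gene was 0.16. For 73 genes (0.497%), 50 of them DEGs, the ranges of the 2 breeds did not overlap. Without NWS ewe 7 the DEGs fell in number to 395, 259 higher and 136 lower, and without Suffolk ewe 10 they numbered 810. Without the 5 ewes above there were 228 DEGs, 155 higher and 73 lower, of which 194 were also DEGs in all 18 ewes. All 612 DEGs kept their sign in those 13 ewes, with a median absolute log2 fold change of 0.89 beside 1.01 with all ewes. The 13 are part of the 18 ewes in which the DEGs were chosen, so the kept sign is not independent support.

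Only part of these genes could be named. The files give Ensembl identifiers, and names were available for 1352 of 27054 identifiers from the study's supplementary tables. Of the 1296 named genes tested, 1254 took their name from a table of genes lower in Fur, the other Norwegian breed, than in Suffolk at the follicular phase, so the names are not a neutral sample. Among named genes 9 were higher in NWS (0.694%) and 200 lower (15.4%), with a median log2 fold change of -0.35, whereas among the 13378 genes without a name 716 were higher (5.35%) and 347 lower (2.59%), with a median of 0.01. Lower counts in the gene groups below are therefore set beside 15.4% and -0.35. The named genes higher in NWS are not a neutral sample either. ACTG2, DES, ASB2, PCP4, PNCK, POPDC2 and PI16 were in the study's short lists of genes lowest in Suffolk against Fur or NWS at the follicular phase. Of the DEGs, 369 of those higher and 128 of those lower had no name.

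**Figure D2:**
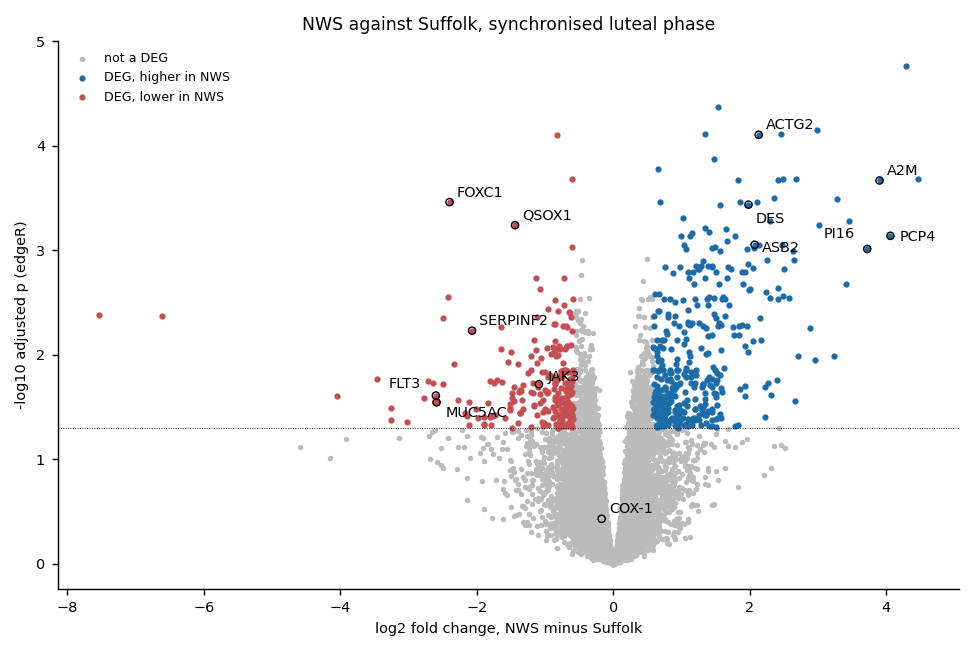
Log2 fold change of NWS against Suffolk (horizontal axis) and -log10 of the adjusted p (vertical axis) of the 14674 genes tested in luteal ewes. DEGs are coloured (378 higher, 234 lower in NWS) the dotted line marks the threshold of 0.05, and several genes named in the text are labelled.

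A group of 3 genes of muscle cells was several-fold higher in NWS. ACTG2, the gamma actin of smooth muscle, lay between 263 and 971 CPM in NWS (median 719) and between 87.9 and 261 CPM in Suffolk (median 145). Every NWS ewe was above every Suffolk ewe, and the log2 fold change was 2.13 ± 0.24 (SE; n = 8 and 10; 4.38-fold; adjusted p = 7.85e-05). DES encodes desmin, the intermediate filament of muscle cells, and ranged from 682 to 2960 CPM in NWS (median 1680) and from 238 to 765 CPM in Suffolk (median 430). All but 1 of the 8 NWS ewes were above the highest Suffolk ewe (log2 fold change 1.98 ± 0.27, adjusted p = 0.000366). ASB2, a ubiquitin ligase subunit that acts on filamins in muscle, had 13.1 to 49 CPM in NWS (median 36.4) and 2.63 to 14.1 CPM in Suffolk (median 7.69). Again 7 NWS ewes exceeded all Suffolk ewes (log2 fold change 2.07 ± 0.31, adjusted p = 0.000886).

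The muscle genes tested did not all move together. Of the 24 symbols of the muscle list, 11 could be matched to an identifier, and MYLK, MYL9 and TPM1 were among those without a match. The list therefore cannot show how muscle genes moved as a whole. Of its 9 genes tested, ACTG2, DES and ASB2 were higher and 5 did not pass the test (median log2 fold change -0.36). The genes that did not pass included PPP1R12B, a subunit of myosin phosphatase (log2 fold change -0.54, adjusted p = 0.0824), and MYLK3, a myosin light chain kinase (-0.67, adjusted p = 0.327). The same 3 genes were higher whichever ewe was left out and also without the 5 ewes.

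POPDC2, a cyclic AMP-binding membrane protein of muscle, missed the filter of 1 CPM in 8 ewes because 7 NWS ewes and no Suffolk ewe reached it. Its levels were 0.839 to 9.02 CPM in NWS (median 3.57) and 0 to 0.934 CPM in Suffolk (median 0.563). In the same test without the filter the log2 fold change was 2.84 ± 0.49 (adjusted p = 0.00243). Summed over the 5 smooth muscle markers, the level was 959 to 3980 CPM in NWS and 329 to 993 CPM in Suffolk, and all 3 markers tested were higher in NWS. All 5 were in the study's short lists of genes lowest in Suffolk against Fur or NWS at the follicular phase. Most of the sum came from DES and ACTG2 (means 1790 and 662 CPM in NWS), so it is not an independent measure of muscle. ACTC1, the remaining marker, averaged 0.801 CPM in NWS and 0.33 CPM in Suffolk and was not tested. Summed markers of epithelium went from 1400 to 3400 CPM in NWS and from 1990 to 4760 CPM in Suffolk, with 3 of 10 lower in NWS. The part of the muscle share of each sample in the other differences was not tested.

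A pair of genes linked to calmodulin, the calcium sensor, was also higher in NWS. PCP4, a small calmodulin-binding protein, was at 6.92 to 39.6 CPM in NWS (median 15.5) and at 0.0584 to 2.12 CPM in Suffolk (median 0.66). No ewes overlapped (log2 fold change 4.06 ± 0.60, 16.7-fold, adjusted p = 0.000728). PNCK, a calmodulin-dependent protein kinase, had 0.895 to 7.83 CPM in NWS (median 3.41) and 0 to 0.687 CPM in Suffolk (median 0.318). All NWS ewes lay above all Suffolk ewes, but only 7 reached 1 CPM, so that its log2 fold change of 3.55 ± 0.50 (adjusted p = 0.000516) comes from the test without the filter. Of the 12 symbols of the calmodulin list, only these 2 could be matched to an identifier, and of them only PCP4 passed the filter. The pair therefore does not describe calmodulin genes as a group.

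Of the protease inhibitors, A2M and PI16 were higher, while SERPINF2, described below, was lower. A2ML1 and SERPINC1 were not called (log2 fold changes -0.90 and -0.12, adjusted p = 0.0541 and 0.814). The higher pair therefore does not describe protease inhibitors as a group. A2M, alpha-2-macroglobulin, a broad inhibitor of proteases, lay at 10.9 to 153 CPM in NWS (median 78.0) and at 1.75 to 9.84 CPM in Suffolk (median 4.06). The ranges did not overlap (log2 fold change 3.90 ± 0.50, 15.0-fold, adjusted p = 0.000215). PI16, a secreted peptidase inhibitor that marks a subset of fibroblasts, was at 3.93 to 98.8 CPM in NWS (median 17.0) and at 0.597 to 5.4 CPM in Suffolk (median 1.63). Here 7 NWS ewes exceeded all Suffolk ewes (log2 fold change 3.72 ± 0.57, adjusted p = 0.000973), and the value was 3.14 without NWS ewe 6, the highest, and 2.35 without the 5 ewes (adjusted p = 0.0172). Summed fibroblast markers, PI16 included, were at 568 to 1860 CPM in NWS and 1160 to 2580 CPM in Suffolk, with 1 of 6 higher and 1 lower.

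Smaller rises were found in a pair of genes known for their part in sperm. ZPBP, a zona pellucida binding protein, had a median of 2.65 CPM in NWS (1.85 to 4.52) and 1.3 CPM in Suffolk (0.687 to 2.42). In 6 NWS ewes it was above every Suffolk ewe (log2 fold change 1.07 ± 0.24, adjusted p = 0.0139). CLGN, the chaperone calmegin, had a median of 4.99 CPM in NWS (2.31 to 11) and 1.67 CPM in Suffolk (0.451 to 4.47). Its log2 fold change of 1.52 ± 0.42 (adjusted p = 0.0306) lost its call without NWS ewe 5 (adjusted p = 0.0631) and without NWS ewe 7 (0.0503). Neither gene was called without the 5 ewes (adjusted p = 0.0986 for ZPBP and 0.111 for CLGN).

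**Figure D3:**
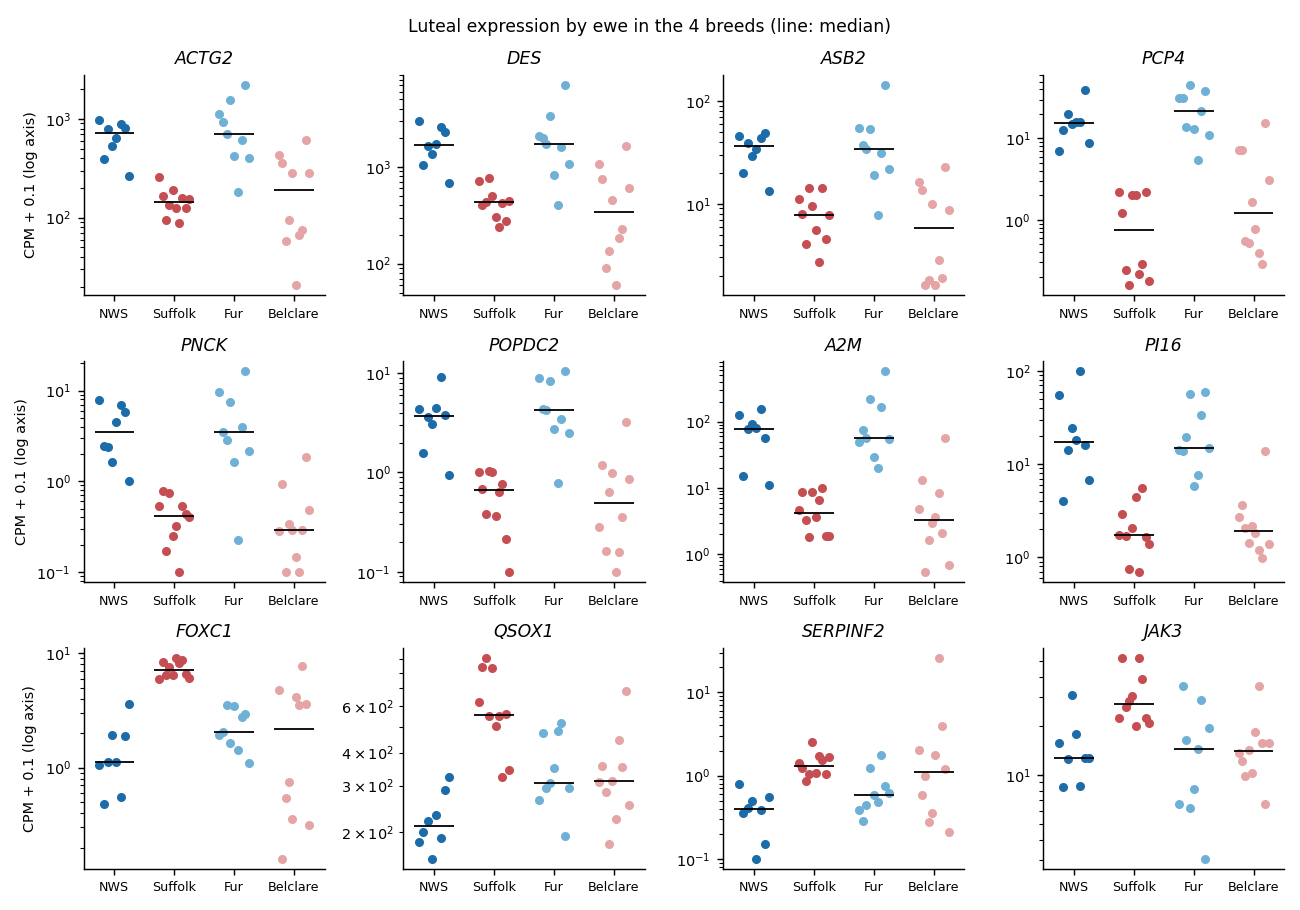
Level of 12 named genes in each luteal ewe of the 4 breeds, as CPM plus 0.1 on a log axis, 1 point per ewe. The first 8 genes were higher in NWS than in Suffolk (PNCK and POPDC2 in the test without the filter) and the last 4 lower, for example ACTG2 at 263 to 971 CPM in NWS and 87.9 to 261 CPM in Suffolk.

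Among genes lower in NWS, a transcription factor and secreted products came first. FOXC1, a forkhead transcription factor, had 0.386 to 3.47 CPM in NWS (median 1.03) and 5.82 to 8.92 CPM in Suffolk (median 7). All NWS ewes were below all Suffolk ewes (log2 fold change -2.40 ± 0.33, 5.29-fold lower, adjusted p = 0.000346). QSOX1, a secreted enzyme that forms disulphide bonds, ranged from 159 to 322 CPM in NWS (median 210) and from 323 to 906 CPM in Suffolk (median 554). The highest NWS ewe was just below the lowest Suffolk ewe (log2 fold change -1.44 ± 0.21, adjusted p = 0.000576). SERPINF2, the inhibitor of plasmin, was low in both breeds, at 0 to 0.702 CPM in NWS (median 0.295) and 0.767 to 2.4 CPM in Suffolk (median 1.22). No ewes overlapped (log2 fold change -2.07 ± 0.41, adjusted p = 0.00589). It reached 1 CPM in 0 NWS and 8 Suffolk ewes, so it passed the filter through Suffolk ewes alone.

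Receptors, enzymes of the matrix and a motor protein followed with smaller differences. EGFLAM, the matrix protein pikachurin, lay at 12.3 to 20 CPM in NWS (median 15.2) and 20.3 to 43.9 CPM in Suffolk (median 26.3), without overlap (log2 fold change -0.86 ± 0.15, adjusted p = 0.00301). TGFBR2, a receptor of transforming growth factor beta, was at 44 to 74.8 CPM in NWS (median 54.0) and at 60.6 to 106 CPM in Suffolk (median 84.5). All but 1 of the NWS ewes were below the lowest Suffolk ewe (log2 fold change -0.62 ± 0.12, adjusted p = 0.00432, and 0.0688 without the 5 ewes). IL17RA, the receptor of interleukin 17, had a median of 49.8 CPM in NWS and 84.6 CPM in Suffolk (log2 fold change -0.72 ± 0.12, adjusted p = 0.00186). HS6ST1, which sulphates heparan chains, had medians of 2.58 and 5.44 CPM (-1.07 ± 0.19, adjusted p = 0.00234). DYNC1H1, the heavy chain of cytoplasmic dynein, had medians of 647 and 988 CPM (-0.61 ± 0.09, adjusted p = 0.000925), and AL359736.1, known by its clone name, had 19.0 and 31.6 CPM (-0.64 ± 0.12, adjusted p = 0.00395). In these last 4 genes the ranges overlapped, with 3 to 5 NWS ewes below every Suffolk ewe. Of the 1296 named genes tested, 9 (0.694%, beside 0.497% of all genes) had ranges that did not overlap, 3 higher in NWS (ACTG2, PCP4, A2M) and 6 lower. The lower ones were FOXC1, QSOX1, SERPINF2, EGFLAM and, named after their values were seen, TFCP2L1 (log2 fold change -0.84) and WDR86 (-1.64). Of these, SERPINF2 had passed the filter through Suffolk ewes alone.

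Among genes without a name, those of smallest p were chosen in each direction. ENSOARG00000007731 had 1.9 to 18.3 CPM in NWS (median 11.1) and 0.112 to 1.03 CPM in Suffolk (median 0.461), and its log2 fold change was 4.29 ± 0.39 (19.6-fold, adjusted p = 1.71e-05). It met the filter through the 8 NWS ewes, with 1 Suffolk ewe at 1 CPM. ENSOARG00000001497 had 157 to 363 CPM in NWS (median 281) and 63.6 to 126 CPM in Suffolk (median 86.1), a log2 fold change of 1.54 ± 0.16 (adjusted p = 4.23e-05). On the lower side, ENSOARG00000012330 lay at 12.6 to 19 CPM in NWS and at 23.3 to 32 CPM in Suffolk (-0.82 ± 0.09, adjusted p = 7.85e-05). ENSOARG00000010202 lay at 230 to 294 CPM in NWS and 325 to 451 CPM in Suffolk (-0.60 ± 0.08, adjusted p = 0.000209). In none of the 4 did the breeds overlap. The largest folds of all DEGs, named after their values were seen, belonged to 2 other unnamed genes that varied widely in Suffolk. ENSOARG00000014659 had 0 to 6.73 CPM in NWS (median 0.476) and 1.11 to 1880 CPM in Suffolk (median 49.1), a log2 fold change of -7.54 ± 1.42 (adjusted p = 0.00417) that was -5.88 without Suffolk ewe 5 and -5.80 without the 5 ewes (adjusted p = 0.0041 and 0.0244). ENSOARG00000008940 had 2.76 to 10.4 CPM in NWS (median 5.26) and 2.99 to 3180 CPM in Suffolk (median 119), a log2 fold change of -6.62 ± 1.25 (adjusted p = 0.0043), which was -5.58 without Suffolk ewe 5 and -4.30 without the 5 ewes (adjusted p = 0.00591 and 0.0119). Both overlapped between breeds, and neither was called at the follicular phase (log2 fold changes -0.18 and -0.76, adjusted p = 0.936 and 0.709).

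Most mucus genes did not pass the test at this phase. Of 16 genes for mucins and other epithelial secretions tested, none was higher and 3 were lower in NWS (18.8%, beside 15.4% of all named genes), with a median of -0.46. They were QSOX1, MUC5AC and MUC16. MUC5AC, a gel-forming mucin, had 0.669 to 9.29 CPM in NWS (median 2.85) and 2.47 to 122 CPM in Suffolk (median 12.8). Its ranges overlapped and 1 Suffolk ewe, number 5, carried the highest value. Its log2 fold change was -2.59 ± 0.69 (adjusted p = 0.0286) and -1.66 without that ewe (adjusted p = 0.0521), and -1.61 without the 5 ewes (adjusted p = 0.159). The call was also lost without NWS ewe 1 (0.0521), 3 (0.05), 4 (0.0527) or 7 (0.0548). MUC16, a membrane mucin of epithelia, ranged from 236 to 553 CPM in NWS (median 444) and from 487 to 1770 CPM in Suffolk (median 631), a log2 fold change of -0.95 ± 0.27 (adjusted p = 0.0343). Leaving out NWS ewe 3, 4 or 7, Suffolk ewe 5 or the 5 ewes left 1 lower gene in this group. SCGB2A1, a secretoglobin, had 0 to 1.58 CPM in NWS and 0 to 28.6 CPM in Suffolk and did not pass the test (log2 fold change -2.49, adjusted p = 0.121, and -1.05 without Suffolk ewe 4), though DESeq2 called it (adjusted p = 0.0474).

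Genes of epithelial junctions and transport differed little. Of 22 junction genes tested, 3 were lower (13.6%, median -0.36) and none higher. GJB2, the gap junction protein connexin 26, had medians of 6.29 CPM in NWS and 13.6 CPM in Suffolk (log2 fold change -1.49 ± 0.39, adjusted p = 0.0258). JUP, the junction protein plakoglobin, had medians of 384 and 554 CPM (-0.48 ± 0.12, adjusted p = 0.0208), and NECTIN2, an adhesion molecule, 107 and 144 CPM (-0.44 ± 0.11, adjusted p = 0.0206). Without the 5 ewes 0 junction genes were called, and 6 were lower without NWS ewe 2 or without Suffolk ewe 10 and 5 with DESeq2. Of 17 genes for ion and fluid transport, 1 was lower (5.88%, median -0.37), the potassium channel KCNK6 (medians 6.03 and 7.76 CPM, -0.40 ± 0.12, adjusted p = 0.0478). That call was lost in 14 of the 18 fits that left out 1 ewe (adjusted p 0.0609 to 0.0888) and without the 5 ewes (0.141). KCNK5, another potassium channel, was not called (-0.57, adjusted p = 0.124).

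Of the 19 genes of steroid hormone and prostaglandin signalling, 0 were called by edgeR (median -0.35), with 2 higher and 2 lower at an unadjusted p under 0.05, and DESeq2 called 1 lower, PGRMC1. This progesterone-binding membrane protein had 34.1 to 47.4 CPM in NWS (median 37.8) and 37.9 to 62.7 CPM in Suffolk (median 49.9). Its log2 fold change was -0.35 ± 0.11 (adjusted p = 0.0518), and it passed the threshold when NWS ewe 2, 5 or 8 or Suffolk ewe 4 or 10 was left out (0.0373, 0.0447, 0.049, 0.0283 and 0.0318). PTGS1, the constitutive cyclooxygenase, had medians of 39.7 CPM in NWS and 50.7 CPM in Suffolk (-0.53 ± 0.27, adjusted p = 0.221). PADI2, which citrullinates proteins, had medians of 8.63 and 4.38 CPM (0.89 ± 0.37, adjusted p = 0.14).

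The lymphocyte genes that were called were all lower in NWS, and their number depended on single ewes. Of 28 identifiers of lymphocyte genes tested, 8 were lower (28.6%, beside 15.4% of named genes), none higher, and the median was -0.70. Immunoglobulin chains made up 4 of the 8. The 2 identifiers named IGHG3, a heavy chain constant region, had medians of 590 and 187 CPM in NWS and 3420 and 1020 CPM in Suffolk (by log2 -2.14 and -2.11, adjusted p = 0.0385 and 0.0467). IGHE and IGLV2-33 had log2 fold changes of -2.77 and -2.11. Such chains share sequence, so reads may be split between copies.

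The other lower lymphocyte genes were signalling molecules. JAK3, a kinase of cytokine receptors, lay at 8.31 to 30.8 CPM in NWS (median 12.5) and 19.8 to 51.7 CPM in Suffolk (median 27.1). All NWS ewes but number 4 were below all Suffolk ewes (log2 fold change -1.09 ± 0.27, adjusted p = 0.0192). FLT3, a receptor tyrosine kinase of blood progenitors and dendritic cells, had 0.309 to 1.72 CPM in NWS (median 0.771) and 0.666 to 15.2 CPM in Suffolk (median 1.65). Its ranges overlapped widely, and the call (-2.60 ± 0.68, adjusted p = 0.0246) was lost without NWS ewe 7 (0.0512). PDCD1, the inhibitory receptor PD-1, and TNFRSF13C, a receptor of B cells, were lower by a log2 value of -1.52 and -0.96 (adjusted p = 0.0327 and 0.0469). The number of lower lymphocyte genes was 1 without NWS ewe 7, 2 without NWS ewe 6, 3 without NWS ewe 3, 4 without Suffolk ewe 5 or 8, and 5 without NWS ewe 1 or Suffolk ewe 1 or 2. Without the 5 ewes it was 0, and with all 4 breeds in one fit 5. Summed markers of lymphocytes were at 18.7 to 55.4 CPM in NWS and 31.7 to 73.4 CPM in Suffolk.

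Of 17 myeloid genes tested, 3 were lower (17.6%, median -0.51). ITGAX, the integrin CD11c, lay at 4.79 to 10.9 CPM in NWS (median 7.83) and 7.88 to 21 CPM in Suffolk (median 14.2). Its groups overlapped (log2 fold change -0.87 ± 0.21, adjusted p = 0.0172). LYN, a Src-family kinase, had medians of 33.4 and 54.1 CPM (-0.64 ± 0.19, adjusted p = 0.0411), a call lost in 12 of the 18 fits without 1 ewe (adjusted p 0.0537 to 0.083) and without the 5 ewes (0.215). FES, another kinase, had -0.44 (adjusted p = 0.0425). Only 1 myeloid gene was lower without NWS ewe 3 or 7, Suffolk ewe 1, 2, 3, 5 or 6, or the 5 ewes, and 5 were lower without NWS ewe 4 and with DESeq2, and 1 with all 4 breeds in one fit. CD177, a neutrophil surface protein, was not called (-1.07 ± 0.45, adjusted p = 0.143). Of 25 interferon response genes, 1 was lower (4%, median -0.30), the ubiquitin ligase TRIM25, with 19.5 to 34.5 CPM in NWS (median 28.8) and 34.3 to 70.6 CPM in Suffolk (median 41.3). Its log2 fold change was -0.71 ± 0.15 (adjusted p = 0.00876), and 3 genes of that group were lower without NWS ewe 4. PARP12, another interferon-induced gene, did not pass (-0.34, adjusted p = 0.134).

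Genes of complement and coagulation moved both ways. Of 15 identifiers tested, A2M was higher and 4 were lower (26.7%, median -0.74), namely SERPINF2, both identifiers of complement C3, and VWF. SERPINF2 had passed the filter through Suffolk ewes alone. C3 had medians of 98.6 and 67.7 CPM in NWS and 304 and 165 CPM in Suffolk (log2 fold changes -1.63 ± 0.39 and -1.38 ± 0.35, adjusted p = 0.0181 and 0.0227). VWF, the von Willebrand factor of endothelial cells, had 373 to 804 CPM in NWS (median 638) and 642 to 1240 CPM in Suffolk (median 881). Its log2 fold change was -0.55 ± 0.15 (adjusted p = 0.029). Summed endothelial markers were at 513 to 1030 CPM in NWS and 813 to 1610 CPM in Suffolk, with 2 of 5 lower, and their part in the VWF and NOTCH4 differences was not tested. Without the 5 ewes 1 gene of this group was lower.

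Lysosomal genes showed small differences. Of 35 tested, 6 were lower (17.1%, median -0.27). PSAP, the precursor of sphingolipid activators, ranged from 863 to 1120 CPM in NWS (median 923) and from 959 to 1480 CPM in Suffolk (median 1280), with 6 NWS ewes below all Suffolk ewes (log2 fold change -0.43 ± 0.09, adjusted p = 0.00588). GRN, progranulin, had medians of 155 and 228 CPM (-0.54 ± 0.12, adjusted p = 0.00894), and CTSB, cathepsin B, 165 and 242 CPM (-0.48 ± 0.11, adjusted p = 0.011). SGSH, ACP2 and IGF2R had log2 fold changes of -0.62, -0.49 and -0.37. Without NWS ewe 1 or NWS ewe 7 only 3 were lower, and without the 5 ewes 0 were, whereas DESeq2 called 11.

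Genes of the extracellular matrix were called in both directions. Of 36 tested, PI16 was higher and 8 were lower (22.2%, median -0.52): EGFLAM, ADAMTS14, ADAMTS7, BMP1, LAMC3, LOXL2, SPON1 and PXDN. ADAMTS14, which processes procollagen, had 3.93 to 6.32 CPM in NWS (median 5.14) and 5.37 to 18.8 CPM in Suffolk (median 9.76), a log2 fold change of -1.16 ± 0.24 (adjusted p = 0.00729). BMP1, another procollagen protease, had medians of 98.7 and 145 CPM (-0.51 ± 0.13, adjusted p = 0.0227), while ADAMTS2, which also processes procollagen, was not called (-0.50, adjusted p = 0.196). LOXL2, which cross-links collagen, had medians of 76.7 and 102 CPM (-0.53 ± 0.14, adjusted p = 0.0287). The count of lower genes was 5 without NWS ewe 4 or 6, and 2 without the 5 ewes.

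Of 19 Wnt and Notch genes, 4 were lower (21.1%, median -0.69). NOTCH4, a receptor of endothelium, had 27.3 to 41 CPM in NWS (median 31.4) and 36.6 to 122 CPM in Suffolk (median 50.3). Its log2 fold change was -0.92 ± 0.20 (adjusted p = 0.00977). NOTCH1, its relative found in many tissues, had medians of 47.2 and 83.8 CPM (-0.69 ± 0.16, adjusted p = 0.0141, and 0.141 without the 5 ewes). WNT4 and WNT10B, secreted ligands, had -1.51 and -0.43 (adjusted p = 0.0341 and 0.0271). The count was 2 without NWS ewe 7, 8 without NWS ewe 1 and 7 without Suffolk ewe 10, and it was 8 with DESeq2 and 9 with all 4 breeds in one fit. No gene of fatty acid use (14 tested, median -0.22), of the clock (2 tested, 0.04) or of the mitochondrial genome (2 tested, 0.07) was called by edgeR. At an unadjusted p under 0.05 there was 1 lower gene of fatty acid use, ELOVL2, and 0 of the other groups, in which DESeq2 also called 0. ELOVL2 (log2 fold change -2.70, adjusted p = 0.0602) was called by DESeq2 (0.00608), and by edgeR with all 4 breeds in one fit (0.0438) or without Suffolk ewe 1 (0.0449), 4 (0.0456) or 10 (0.0481), and its value was -1.55 without Suffolk ewe 7. COX-1, the mitochondrial cytochrome oxidase subunit, had medians of 1720 and 1860 CPM (-0.17 ± 0.11, adjusted p = 0.372) and MT-ND6, a subunit of complex I, had 7.37 to 20.9 CPM in NWS and 5.84 to 15.7 CPM in Suffolk (0.32 ± 0.22, adjusted p = 0.388).

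**Figure D4:**
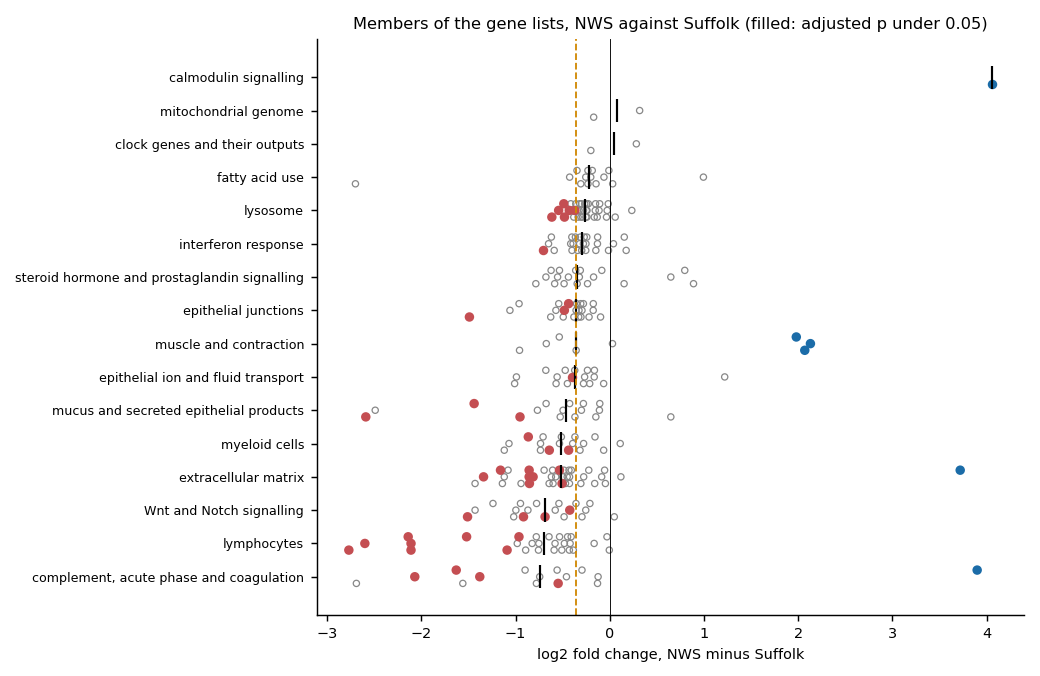
Log2 fold change of NWS against Suffolk in luteal ewes for the tested members of each gene list, 1 point per gene (1 gene is not shown), with called members filled (blue higher, red lower) and a tick at the median of the list. The dashed line is the median of all 1296 named genes (-0.35), and the lymphocyte list has its median at -0.70 with 8 of 28 lower.

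The breed difference was then set beside that of the follicular phase, for which other ewes (10 NWS and 11 Suffolk) of the same synchronised cycle were sampled. On the same genes, 2697 (18.4%) were DEGs at the follicular phase. Of the 612 luteal DEGs, 420 were also follicular DEGs, which is 68.6% of the luteal and 15.6% of the follicular list, and 418 had the same direction. The 2 with opposite direction were ENSOARG00000007687 and ENSOARG00000001564, named here after their values were seen. Shared DEGs had a median absolute log2 fold change of 1.08 at the luteal and 1.32 at the follicular phase, and 294 of the 420 had the larger value at the follicular phase. Without the 4 follicular ewes of score below 0 there were 2497 follicular DEGs, 421 of them luteal DEGs (68.8% of the luteal and 16.9% of the follicular list). Another 192 luteal DEGs were not follicular DEGs, and the difference between phases was called for 1 of them.

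The muscle genes had larger breed differences at the follicular phase, but the change between phases did not pass the test with all ewes. ACTG2 had a median of 719 CPM in luteal and 2540 CPM in follicular NWS ewes, and of 145 and 122 CPM in Suffolk ewes. Its follicular log2 fold change between breeds was 4.21 ± 0.46, beside 2.13 at the luteal phase, and the difference between them, -2.08 ± 0.52 from the joint fit, did not pass (adjusted p = 0.0697). DES had medians of 1680 and 3580 CPM in NWS and 430 and 196 CPM in Suffolk, with an interaction of -2.19 ± 0.55 (adjusted p = 0.0697). Both passed without the 5 ewes (adjusted p = 0.0444 for each) and with DESeq2 (0.0108 for each), and without the 4 follicular ewes of score below 0 the values were 0.0241 for ACTG2 and 0.0531 for DES. For PCP4 the interaction was -2.31 ± 0.80 (adjusted p = 0.199) and for ASB2 -1.54 ± 0.45 (adjusted p = 0.126).

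Other named genes had breed differences whose change between phases was not called. A2M had log2 fold changes of 3.90 at the luteal and 1.90 at the follicular phase, with Suffolk medians of 4.06 and 12 CPM and NWS medians of 78.0 and 43.8 CPM (interaction 2.01 ± 0.69, adjusted p = 0.195). FOXC1 had -2.40 and -2.63 (interaction 0.22 ± 0.42, adjusted p = 0.839), and PI16 had 3.72 and 3.95 (interaction -0.21 ± 0.69, adjusted p = 0.916, and -1.59 without the 5 ewes, adjusted p = 0.191). JAK3 had -1.09 and -2.11 (interaction 1.02 ± 0.41, adjusted p = 0.275). TRPM1, a cation channel, was not called at the luteal phase (-1.15 ± 0.60, adjusted p = 0.242), with 0.514 to 5.96 CPM in NWS and 0.299 to 13.9 CPM in Suffolk, and had -3.85 at the follicular phase, while the interaction of 2.70 ± 0.88 did not pass (adjusted p = 0.172).

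Across all genes the interaction was called for 22 of 14674 (0.15%), none of them named, 2 with a more positive and 20 with a more negative difference at the luteal phase, and 1981 had an unadjusted p under 0.05. Of the 22, 17 were called between breeds at the follicular phase only, 4 at both phases and 1, ENSOARG00000012330, at the luteal phase only. This gene had medians of 15.7 and 27.3 CPM in luteal NWS and Suffolk ewes and 27.8 and 29.6 CPM in follicular ones (interaction -0.67 ± 0.15, adjusted p = 0.0408). The number called was 9 without NWS ewe 5, 118 without NWS ewe 1 and 152 without the 5 ewes. Without the 4 follicular ewes it was 17. Named genes, absent from the 22, numbered 16 of those called without the 5 ewes, with GRN among them (adjusted p = 0.0407), and 22 of those called by DESeq2, with MT-ND6 among them (0.0392).

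**Figure D5:**
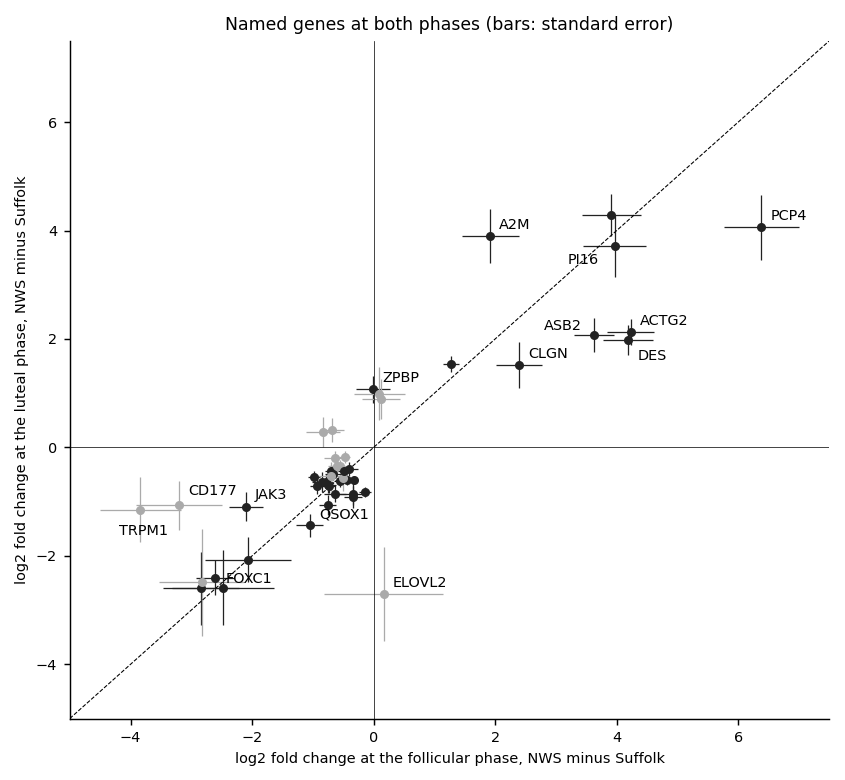
Log2 fold change of NWS against Suffolk at the follicular phase (horizontal axis, from the joint fit of both phases) and at the luteal phase (vertical axis) for the named genes tested, with bars of 1 SE and the line of equal change dashed. Dark points passed at the luteal phase by adjusted p, and ACTG2, DES, ASB2 and PCP4 lie below the line on the right and A2M above it.

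The NWS ewes were also compared with the luteal ewes of the other breeds, and since these comparisons share the 8 NWS ewes with the one above, their values are only set side by side. Against the 9 Fur ewes, also sampled in Norway, 4 genes were DEGs (0.0273%) and 6 passed by adjusted p, with 1607 at an unadjusted p under 0.05. The only named one was COX-1, with 1310 to 2160 CPM in NWS and 26.4 to 37.2 CPM in Fur (log2 fold change 5.75, adjusted p = 3.41e-16). MT-ND6, the other mitochondrial gene tested by name, had medians of 12.2 CPM in NWS and 8.53 CPM in Fur (0.25, adjusted p = 0.703). The cause of the COX-1 difference was not tested. One luteal DEG of NWS against Suffolk was among the 6, ENSOARG00000003664. Against the 10 Belclare ewes, the other Irish breed, 1711 genes were DEGs (11.7%), 974 higher and 737 lower in NWS. Without NWS ewes 1 and 6 there were 6 DEGs against Fur and 861 against Belclare.

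For ACTG2, PCP4 and A2M, the Fur median lay nearer that of NWS and the Belclare median nearer that of Suffolk. The study listed ACTG2 and PCP4 among the genes lowest in Suffolk against Fur at the follicular phase, so they were not a neutral choice. This order was not counted over all DEGs. ACTG2 had a median of 712 CPM in Fur and 188 CPM in Belclare, and its log2 fold changes were -0.44 for NWS against Fur (adjusted p = 0.7) and 1.53 against Belclare (adjusted p = 0.0355). PCP4 had medians of 21.7 and 1.13 CPM (log2 fold changes -0.48, adjusted p = 0.675, and 2.21, adjusted p = 0.028). A2M had medians of 56.7 CPM in Fur and 3.21 CPM in Belclare (-0.84, adjusted p = 0.641, and 3.02, adjusted p = 0.0112).

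FOXC1 did not follow that order, since its medians were 1.94 CPM in Fur and 2.06 CPM in Belclare, and NWS was called against neither (-0.69, adjusted p = 0.515, and -0.89, adjusted p = 0.36). Belclare ewes ranged from 0.06 to 7.67 CPM of FOXC1, across most of the span of NWS and Suffolk. EGFLAM likewise had medians of 14.8 and 15.1 CPM in Fur and Belclare, beside 15.2 CPM in NWS and 26.3 CPM in Suffolk, and was not called against Belclare (-0.27, adjusted p = 0.261). JAK3 had medians of 14.2 and 13.9 CPM, beside 12.5 CPM in NWS and 27.1 CPM in Suffolk (against Belclare -0.04, adjusted p = 0.926). CLGN, higher in NWS than in Suffolk, had medians of 10.8 and 4.62 CPM in Fur and Belclare. Its medians were 4.99 CPM in NWS and 1.67 CPM in Suffolk (against Belclare 0.16, adjusted p = 0.792). An adjusted p above the threshold does not show that the breeds had equal levels.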

How the data were processed

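RNA of mid-cervix was sequenced as paired reads from stranded, poly(A)-selected libraries. The authors aligned reads with STAR 2.6.1b to Oar_v3.1 and counted unique pairs per Ensembl gene with featureCounts (Subread 1.6.3), and the deposited values are raw counts. The strand setting of the counting was not given in the sources used here. Breed, cycle and phase came from the labels. Genes with at least 1 CPM in at least 8 of the 18 luteal ewes were tested with edgeR 4.0.16 in R 4.3.3 (TMM, quasi-likelihood F test, Benjamini-Hochberg over all genes). Genes were taken as DEGs at an adjusted p under 0.05 with a fold change over 1.5, whereas list members and interactions were called by adjusted p alone. The interaction was fitted on 4 groups of NWS and Suffolk ewes. SEs are the fold change divided by the square root of F. The genes named were those of a study table on these breeds, in each direction the 8 DEGs with a name and the smallest p, the 2 members of smallest p of each list, the 2 unnamed DEGs of smallest p in each direction and 3 genes fixed by name (COX-1, MT-ND6, PTGS1). Other called list members were named to account for each count. The members and lists were chosen with earlier results of these data known. DESeq2 1.42.0, other filters and scalings, and leaving out ewes were alternatives. Libraries of a group were distinct (lowest chi-square per degree of freedom 23.5 over 73 pairs). The p-values set a difference between groups against the spread between ewes within a group, and they take no account of country. On simulated counts for 14674 genes, 200 of them changed, the luteal comparison recovered 72% of 2-fold and 96% of 4-fold changes and the interaction 64% and 97%. By adjusted p, 17 unchanged genes were also called in the luteal comparison and 9 in the interaction. A total of 3 counts was taken as the limit of detection. Sequences were not used here, and 1 gene of the muscle list is not reported here.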

Additional observations from a re-analysis of the deposited data

Results flagged for a closer look

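In 18 of 100 groups tested (the named genes in each breed), 1 ewe stood apart from the rest of its group by Dixon's criterion. Chance meets it in about 1 in 20 groups of normally distributed values. Here it was applied to CPM without a log, and the groups share the same 18 ewes, so the 18 of 100 cannot be set against that rate. In NWS, ewe 8 was highest for FOXC1 (3.47 CPM, next 1.82) and PSAP (1120 CPM, next 966), ewe 7 for PCP4 (39.6 CPM, next 20.0), and ewe 4 for JAK3 (30.8 CPM, next 17.7). NWS ewe 6, 1 of the 5 with a high phase score, was highest for POPDC2 (9.02 CPM) and KCNK6 (7.72 CPM), ewe 3 for TGFBR2 (74.8 CPM) and NOTCH1 (82.9 CPM), and ewe 2 for ACSL6 (6.63 CPM). In Suffolk, ewe 5 was highest for MUC5AC (122 CPM, next 26.4), CD177 (17.4 CPM, next 7.28) and SERPINF2 (2.4 CPM, next 1.61). Suffolk ewe 4 stood apart for SCGB2A1 (28.6 CPM, next 4.46), ewe 7 for ELOVL2 (31.7 CPM, next 8.44) and ewe 8 for TRPM1 (13.9 CPM) and ACSL6 (2.96 CPM). Suffolk ewe 10 was lowest for DYNC1H1 (656 CPM, next 891) and HS6ST1 (2.26 CPM, next 4.76), both within the NWS range. Neither ELOVL2, which elongates fatty acids (log2 fold change -2.70, adjusted p = 0.0602), nor ACSL6, which activates them (0.99, adjusted p = 0.214, and 0.37 without NWS ewe 2), was called by edgeR with all 18 ewes.

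The breed difference itself differed between phases for 22 genes by the interaction test, among them ENSOARG00000012330 with an interaction of -0.67 on the log2 scale, which was a DEG at the luteal phase and not called at the follicular phase (log2 fold change -0.16, adjusted p = 0.277). The others that were also luteal DEGs were ENSOARG00000003372, ENSOARG00000020797 and ENSOARG00000015847, higher in NWS at both phases by 0.92, 1.35 and 1.15 at the luteal and 2.29, 2.56 and 2.67 at the follicular phase, and ENSOARG00000001564, with -0.62 and 0.91. They were named after their values were seen.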

How the results depend on the processing

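DEGs numbered 612 (378 higher, 234 lower). DESeq2 called 379 lower with the Wald and 361 with the likelihood ratio test. With no fold threshold 1272 passed (725 higher, 547 lower), and with edgeR's glmTreat against 1.5-fold 76 (70, 6). Without 1 ewe the count was 395 to 810 (higher 259 to 494, lower 136 to 316), and without the 5 ewes 228 (155, 73). The replicate block gave 203 (130, 73), but equal numbers did not mark paired ewes (8 pairs, r from -0.537 to 0.042, none nearest its own number). The 22 interaction genes (2 higher, 20 lower) became 164 with the Wald test (43, 121), 152 without the 5 ewes (32, 120), 153 without these and 4 follicular ewes (34, 119), 17 without those 4 alone (4, 13), 1 with all 4 breeds in one fit (0, 1; 890 higher at an unadjusted p under 0.05), 0 with a replicate block (0, 0; 1608 at an unadjusted p under 0.05), and 9 to 118 without 1 ewe (higher 2 to 24, lower 7 to 94). Size factors gave 4 higher and no filter 13 lower. The 4 DEGs against Fur became 50 with the Wald test (24 higher, 26 lower), 9 without the filter (3, 6), 2 with all 4 breeds (1 lower), 6 without NWS ewes 1 and 6 (3 higher) and 1 with the block (0 lower; 463 at an unadjusted p under 0.05). Against Belclare the block gave 973 (533, 440) and leaving out NWS ewes 1 and 6 gave 861 (524, 337). The cause of these differences was not tested. Over all alternatives, named genes kept direction in every value and the side of the threshold in 1271, while 94 lost and 16 gained a call. With the block FLT3, ZPBP, CLGN, MUC5AC, NECTIN2, JUP, KCNK6, JAK3, ITGAX, LYN, TRIM25 and SERPINF2 lost theirs, and all 4 breeds in one fit lost ITGAX (adjusted p = 0.139), SERPINF2 (0.0711), MUC5AC (0.0707), KCNK6 (0.154) and LYN (0.0653). Depth limits genes under about 0.175 CPM.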

Other observations

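The Suffolk library whose title and labels disagreed (a natural follicular title, labels of the synchronised luteal phase) entered no comparison. It had 129 CPM of GREB1, 1.18 CPM of OXTR and 20.9 CPM of AQP9. FOXC1 was at 6.63 CPM and QSOX1 at 649 CPM, both within the range of the 10 luteal Suffolk ewes, and ACTG2 was at 245 CPM. A2M was at 20.8 CPM, above the highest luteal Suffolk ewe (9.84 CPM). Also above that range were PNCK (1.3 CPM, highest 0.687), ASB2 (14.4 CPM, highest 14.1) and CLGN (6.33 CPM, highest 4.47). Below it lay, among others, JUP (300 CPM, lowest 356), TRIM25 (23.7 CPM, lowest 34.3) and NOTCH1 (43.5 CPM, lowest 50.2).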
